A study of Mus musculus with 11 samples.

Results

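Dcdc2a, Pkhd1, Pkd1, Pkd2, Bicc1, Cys1, Ift88 and Invs are 8 genes of the primary cilium and of inherited cystic disease of liver and kidney, followed here in whole livers of newborn mice in which Notch signalling was switched on. They were taken by name, with earlier results of these data known, from 21337 genes with a symbol on a 1-colour (Cy3) whole mouse genome array, and every probe that carries one of these names, or whose transcript accession now does, was taken: 18 of 41174 probes. In mutants, Cre under the AFP promoter, which is active in the precursors of hepatocytes and duct cells, removes the stop cassette of the Rosa26-lsl-NICD allele, so that these cells and their descendants make the intracellular domain of Notch. Controls carry the Rosa26-lsl-NICD allele alone, and no group carries Cre alone. All pups were of a hybrid 129 x C57BL/6 background. RNA of the liver was taken on the day of birth (day 0; 2 controls and 3 mutants) and at day 2 (3 controls and 3 mutants), which gives 11 arrays in 4 groups; the labels do not say whether pups of a group shared a litter.

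The cells that line bile ducts carry a single non-motile cilium that reaches into the duct, whereas hepatocytes largely lack one. The cilium is built and maintained by intraflagellar transport, in which complexes named IFT-B and IFT-A are carried along microtubules by kinesin and dynein motors, and the polycystins and fibrocystin sit in its membrane. Loss of many of these genes leaves ducts or kidney tubules dilated, and in the liver can leave bile ducts in the immature form known as the ductal plate malformation.

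The readings depend on where each probe lies, so 7 of the 18 probes are shown. They were picked by name among those that have a frame without a stop or cross an intron. Others with such a frame, among them the Pkd1 probe and the other Bicc1 probes, are not shown. Positions are those of the array's own annotation on mouse build mm8. Capitals mark a last triplet that reads as a stop in the frame that ends there. Each probe so marked also has 1 frame without a stop, so the triplet need not be the stop codon of the gene. For Dcdc2a, the probe at chr13:25212924-25212983 (plus strand) ends in such a triplet. The second probe maps across 9185 bases of genome, chr13:25117571-25126755, and so spans an intron.
Dcdc2a A_52_P640922: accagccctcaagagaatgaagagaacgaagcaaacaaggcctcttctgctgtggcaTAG
Dcdc2a A_52_P31155: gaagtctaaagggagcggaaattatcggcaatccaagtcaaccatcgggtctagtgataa
Bicc1 has 3 probes, and the one at chr10:70319754-70319813 (minus strand) ends in such a triplet. So does the brightest, which starts 1407 bases downstream and has 2 other frames without a stop.
Bicc1 A_52_P867663: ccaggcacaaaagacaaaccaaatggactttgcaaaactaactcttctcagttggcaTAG
The Pkd2 probe at chr5:104743812-104743871 (plus strand) also ends in such a triplet, beside 1 frame without a stop. The other tested Pkd2 probe starts 2133 bases downstream of it.
Pkd2 A_51_P419613: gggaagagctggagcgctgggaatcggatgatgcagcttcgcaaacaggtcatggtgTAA
Pkhd1 is a very long gene, and its probe at chr1:20578336-20578395 (minus strand) lies 523 kb upstream of the next one, at chr1:20055590-20055649.
Pkhd1 A_51_P322482: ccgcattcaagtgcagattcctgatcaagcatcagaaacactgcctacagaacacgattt
Pkhd1 A_52_P576007: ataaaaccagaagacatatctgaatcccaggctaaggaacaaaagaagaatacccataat
The only Ift88 probe maps across 305 bases, chr14:56471159-56471463 (plus strand), and spans an intron.
Ift88 A_51_P503026: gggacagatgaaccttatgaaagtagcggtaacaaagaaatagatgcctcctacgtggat

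Of the 18 probes, 14 were tested, because all arrays of some group read them well above background. Another 2, of Invs and Pkd2, were above background on no array, and the remaining probes of Dcdc2a and Invs were so on 3 and 5 arrays. All 8 genes therefore had a tested probe; where a gene had several, its value is that of the brightest. Levels below are log2 signals relative to the array's own 75th percentile, so that 0 is the 75th percentile of the array, and differences are log2, mutant minus control, with the standard error of the limma fit over all 11 arrays. An adjusted p (Benjamini-Hochberg, over 15954 genes) under 0.05 is called past the threshold. Levels of different probes are not compared with each other.

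The 75th percentile signal ranged from 608 to 1302 over the arrays, and between 63.3% and 68.6% of probes were well above background. The third day 0 mutant stood apart: in 605 genes it lay at least 2-fold above every other array and in 470 at least 2-fold below, while no other array exceeded 66 in either direction. By Xist and Y-linked genes, both day 0 controls were male and the 3 day 0 mutants female, and each day 2 group had 1 male and 2 females, so that sex and genotype cannot be told apart at day 0. Each group held 1 position on the slides, so position and genotype cannot be told apart either. Hepatocyte markers were high on all arrays (summed log2 level 10.1 to 11.2), as the label liver says. Over both days none of the 8 tested was higher in mutants and 4 were lower, where 1068 of all 15954 genes were lower.

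Over both days together, 5 of the 8 genes were higher in mutants and none was lower, where 15.4% of all genes tested passed in either direction and 8.66% were higher. The 5 were Dcdc2a, Cys1, Bicc1, Pkd2 and Ift88; Pkhd1, Pkd1 and Invs did not pass the threshold. The median difference of the 8 was 1.11, against -0.05 over all genes tested. At day 0 alone 3 of 8 passed, all higher (background 2.15%, higher 1.52%), of which Bicc1 did not with slide as a block or pup sex as a covariate, and at day 2 5 of 8, all higher (background 15.8%, higher 9.46%). Every mutant lay above every control at both days for Dcdc2a, Cys1, Bicc1 and Ift88, as it did for 7.32% of all genes.

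**Figure D1:**
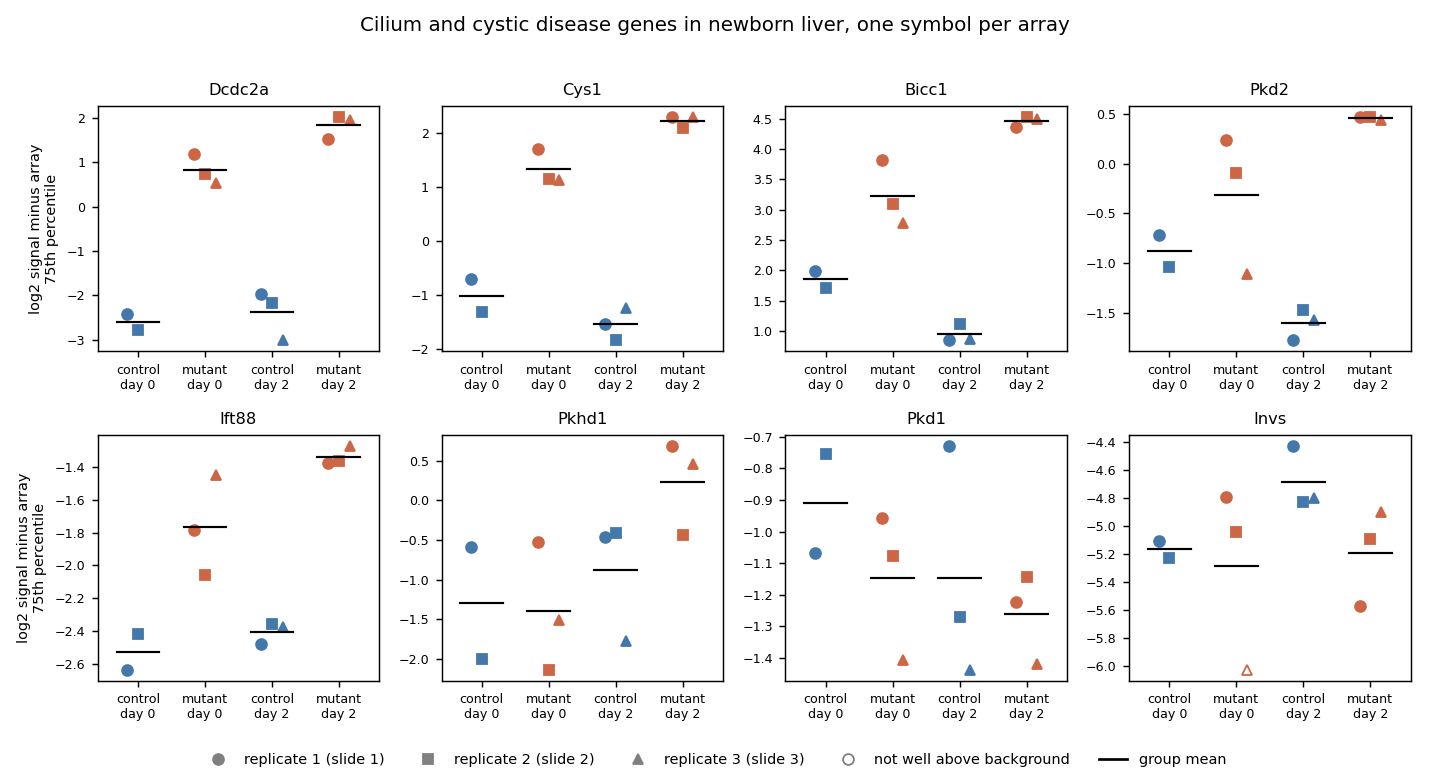
Level of each gene on each of the 11 arrays (y axis, log2 signal minus the array's 75th percentile; the axis differs between panels) by group, with 1 symbol per array, shaped by replicate number, and a bar at the group mean. In Dcdc2a, Cys1, Bicc1 and Ift88 all mutant arrays lie above all control arrays of the same day; in Pkd2 this holds at day 2, and in Pkhd1 and Pkd1 the groups overlap at both days.

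Dcdc2a encodes a doublecortin-domain protein that binds microtubules of the cilium, and its human counterpart is mutated in neonatal sclerosing cholangitis. Its level was -2.43 and -2.78 in the day 0 controls and 1.18, 0.74 and 0.54 in the day 0 mutants. At day 2 it was -1.98, -2.16 and -3.01 in controls and 1.52, 2.02 and 1.95 in mutants. No mutant came near any control. The difference was 3.42 ± 0.33 at day 0 (10.7-fold, adjusted p = 0.00128) and 4.21 ± 0.29 at day 2 (18.5-fold, adjusted p = 3.72e-05), and 29 genes of 15954 had a mean difference over both days (3.82 ± 0.22) as large or larger, Dcdc2a included.

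The intron-spanning probe of Dcdc2a gave the same picture. It read -4.33 and -4.44 in day 0 controls, and -0.39, -0.63 and -1.22 in day 0 mutants. The day 2 arrays gave -3.97, -3.09 and -5.36 in controls, and 0.71, 1.09 and 1.06 in mutants. Its difference was 3.64 ± 0.53 at day 0 (adjusted p = 0.0112 over all tested probes) and 5.09 ± 0.48 at day 2 (adjusted p = 0.000179). The third probe of this gene was above background on 1 array of each group but the day 0 controls, and has no test.

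Cys1 encodes cystin, a lipid-anchored protein of the ciliary membrane whose loss causes the cystic kidneys and biliary lesions of the cpk mouse. Its level was -0.70 and -1.31 in day 0 controls and 1.70, 1.14 and 1.12 in day 0 mutants. At day 2 the controls read -1.54, -1.83 and -1.24 and the mutants 2.28, 2.09 and 2.29. The 2 genotypes were separate at both days, and the 3 day 2 mutants lay close together. The difference was 2.33 ± 0.26 at day 0 (5.02-fold, adjusted p = 0.00297) and 3.76 ± 0.23 at day 2 (13.5-fold, adjusted p = 2.07e-05). Fitted on the day 0 arrays alone, the day 0 difference had an adjusted p of 0.0794.

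Bicc1 encodes an RNA-binding protein with KH and SAM domains, and its loss gives mice with polycystic kidneys and bile duct defects. It read 1.99 and 1.71 in day 0 controls and 3.82, 3.09 and 2.78 in day 0 mutants. Its day 2 levels were 0.85, 1.12 and 0.87 in controls and 4.36, 4.53 and 4.50 in mutants. The day 2 controls were thus the lowest group and the day 2 mutants the highest, with no overlap between any pair of neighbouring groups. The difference was 1.38 ± 0.27 at day 0 (2.60-fold, adjusted p = 0.0374) and 3.52 ± 0.24 at day 2 (11.5-fold, adjusted p = 3.72e-05). The other probes gave 1.51 ± 0.22 and 1.41 ± 0.28 at day 0, and 3.50 ± 0.20 and 3.67 ± 0.25 at day 2.

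The day 0 call of Bicc1 was lost when any of 9 of the 11 arrays was left out, with an adjusted p of up to 0.312 without the second day 0 control. It held without the first day 0 mutant and without the third, and the direction was the same in every case. With slide as a block the adjusted p was 0.0587 (difference 1.46), and with pup sex as a covariate, which at day 0 cannot be told apart from genotype, it was 0.429 (difference 1.25). Median scaling gave an adjusted p of 0.0567, and no filter on dim probes 0.0578.

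The polycystins form a membrane complex of the cilium, in which polycystin-1, from Pkd1, is the large receptor-like partner and polycystin-2, from Pkd2, a cation channel of the TRP family. Pkd2 read -0.72 and -1.04 in day 0 controls and 0.24, -0.09 and -1.11 in day 0 mutants. Day 2 levels were -1.77, -1.47 and -1.57 in controls and 0.47, 0.47 and 0.43 in mutants. At day 0 the third mutant, the array that stood apart, lay below both controls, whereas at day 2 the genotypes were far apart and the mutants nearly equal. The difference was 2.06 ± 0.30 at day 2 (4.18-fold, adjusted p = 0.002) and 0.56 ± 0.33 at day 0 (adjusted p = 0.480). Without the third day 0 mutant the day 0 difference was 0.96, with an adjusted p of 0.0193.

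The Pkd2 probe whose last triplet is TAA gave the same within-slide differences but very different levels from array to array. It read -5.38, -2.18 and -2.13 in the day 2 controls of slides 1, 2 and 3, and -3.21, -0.16 and -0.22 in the day 2 mutants. The day 2 arrays of slides 2 and 3 were thus far brighter than that of slide 1 in either genotype, and the day 0 arrays of slides 1 and 2 lay between -4.68 and -3.67. Of 26749 tested probes with a value on all arrays, 2, this probe included, had these 4 arrays at least 2-fold above the other 7. The pattern was taken from this probe, so the count is a description. Within slides 1, 2 and 3 the day 2 difference at this probe was 2.17, 2.02 and 1.92, beside 2.24, 1.94 and 2.01 at the other probe. Without regard to slide, its day 2 difference of 2.04 ± 0.97 did not pass the threshold (adjusted p = 0.209), and with slide as a block the adjusted p was 0.152.

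Pkd1 has 1 probe. Its last triplet reads as a stop in the frame that ends there, while 2 other frames hold no stop. It read -1.07 and -0.75 in day 0 controls and -0.96, -1.08 and -1.41 in day 0 mutants. In day 2 livers it read -0.73, -1.27 and -1.44 in controls and -1.22, -1.14 and -1.42 in mutants. The groups overlapped at both days, and the difference over both days was -0.18 ± 0.16 (adjusted p = 0.517).

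Pkhd1 encodes fibrocystin, the large membrane protein of duct and tubule cilia that is mutated in autosomal recessive polycystic kidney disease with congenital hepatic fibrosis. Its brightest probe, the farthest 3′, read -0.59 and -2.0 in day 0 controls and -0.53, -2.13 and -1.51 in day 0 mutants. At day 2 it read -0.46, -0.41 and -1.77 in controls and 0.68, -0.44 and 0.46 in mutants. Controls of the same day lay far apart, and the genotypes overlapped at both days. The difference was -0.09 ± 0.62 at day 0 (adjusted p = 0.963) and 1.11 ± 0.56 at day 2 (adjusted p = 0.214).

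The next probe upstream, 12.5 kb away, moved with it from array to array. It read -3.15, -3.38 and -4.44 in day 2 controls and -1.94, -3.08 and -2.16 in day 2 mutants, without overlap. Its day 2 difference was 1.27 ± 0.51 (adjusted p = 0.139; 0.0540 with slide as a block). Within slides 1, 2 and 3 the day 2 difference was 1.21, 0.31 and 2.28 at this probe and 1.13, -0.03 and 2.23 at the brightest one, so that slide 2 showed little or none.

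The 5′-side probe of Pkhd1 behaved differently. It was above background on none of the 5 control arrays, on 2 of 3 day 0 mutants and on all 3 day 2 mutants. The control arrays read between -7.26 and -6.09, the day 0 mutants -4.48, -6.59 and -3.21, and the day 2 mutants -3.38, -4.35 and -3.06. At day 0 the second mutant was thus within the range of the controls, and the measured difference of 1.94 ± 0.82 did not pass the threshold (adjusted p = 0.340). At day 2, against the lowest signal counted as above background where that was higher than the probe's own, the mutants were at least 6.72-fold higher (measured difference 2.75 ± 0.74, adjusted p = 0.0382). This probe entered the test only through the day 2 mutants, the group in which it was high, so its adjusted p is a description and does not support a difference of the gene; the other 2 probes did not pass.

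**Figure D2:**
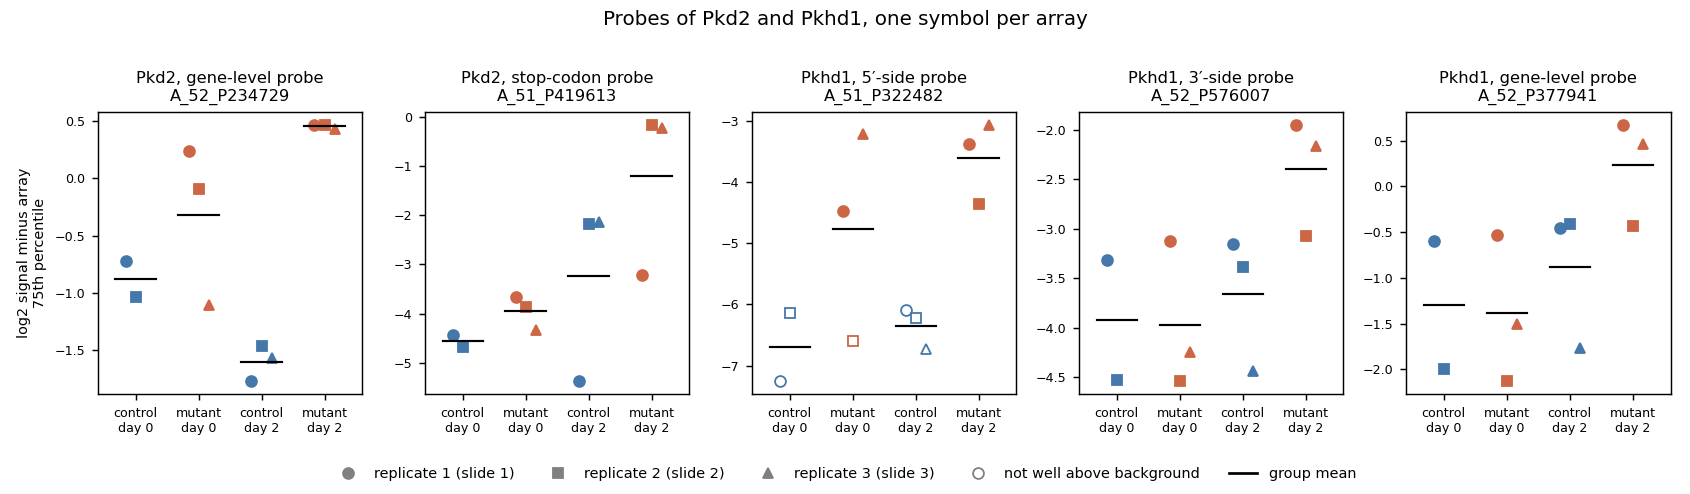
Level on each array (y axis, log2 signal minus the array's 75th percentile; the axis differs between panels) at 2 probes of Pkd2 and 3 of Pkhd1, by group; open symbols are arrays on which the probe was not well above background. The Pkd2 probe headed stop-codon probe, so called only for its last triplet, is high on the day 2 arrays of slides 2 and 3 in both genotypes. The 5′-side probe of Pkhd1 has no filled symbol among controls.

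Ift88 encodes a core subunit of the IFT-B complex, and mice with little of it (the Oak Ridge polycystic kidney mouse) have short cilia with cysts and biliary hyperplasia. It read -2.63 and -2.41 in day 0 controls and -1.78, -2.06 and -1.45 in day 0 mutants. The levels at day 2 were -2.48, -2.36 and -2.38 in controls and -1.38, -1.37 and -1.28 in mutants. All mutants were above all controls at both days, and the spread within the day 2 groups was small. The difference was 1.06 ± 0.17 at day 2 (2.09-fold, adjusted p = 0.00299). At day 0 it was 0.76 ± 0.19 and missed the threshold (adjusted p = 0.0789); without the second day 0 mutant it was 0.91, with an adjusted p of 0.0483.

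Invs encodes inversin, an ankyrin-repeat protein of the proximal cilium that acts on the choice between Wnt pathways; the inv mouse has reversed body sides, cystic kidneys and bile duct anomalies. Its tested probe was dim, at -5.11 and -5.22 in day 0 controls and -4.79, -5.04 and -6.03 in day 0 mutants, of which the third was not above background. At day 2 it read -4.43, -4.83 and -4.80 in controls and -5.57, -5.09 and -4.90 in mutants, so that every mutant was below every control. The difference was -0.12 ± 0.35 at day 0 (adjusted p = 0.902) and -0.50 ± 0.31 at day 2 (adjusted p = 0.313). A second Invs probe, above background on 5 arrays and not tested, differed the other way at day 2, by 1.27, 0.27 and 1.22 within slides 1, 2 and 3.

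**Figure D3:**
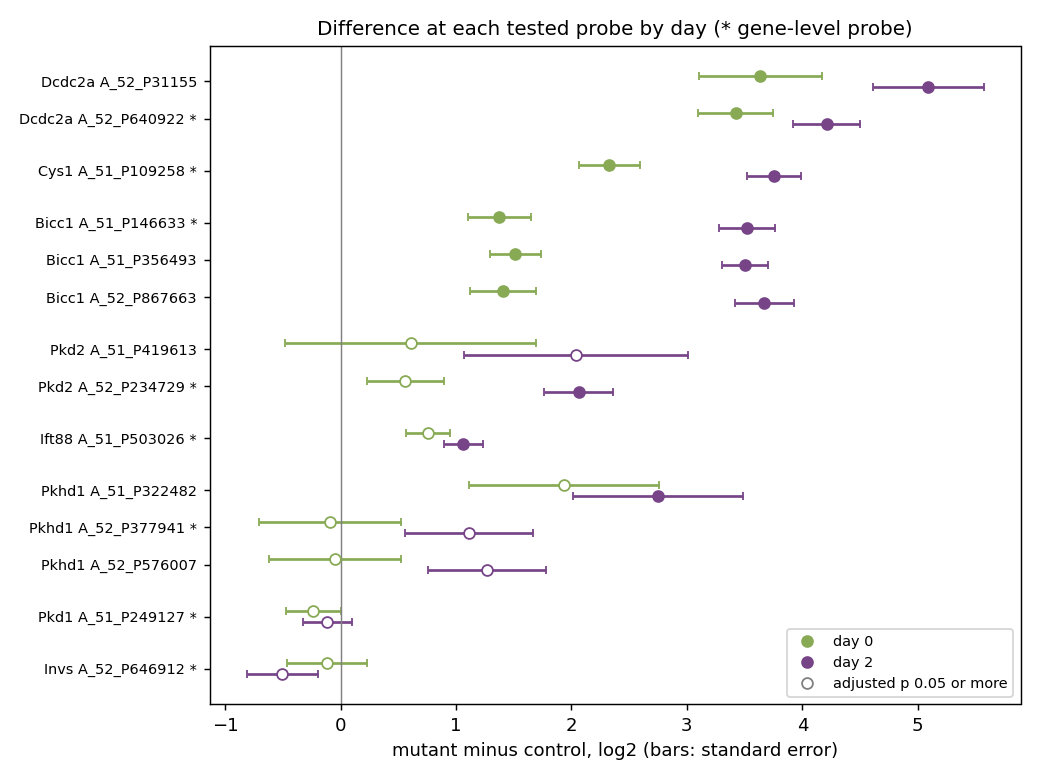
Mutant minus control at each of the 14 tested probes (x axis, log2, with the standard error) at day 0 and at day 2; filled symbols passed the threshold in the fit of all tested probes, and a star marks the probe that stands for the gene. The 3 probes of Bicc1 lie close together at either day, while those of Pkhd1 spread from 1.11 to 2.75 at day 2.

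Between day 0 and day 2, 3 of the 8 genes rose in mutants (background 20%, higher 9.03%) and none passed in controls (background 10.5%). In mutants Bicc1 rose by 1.24 ± 0.24 (adjusted p = 0.0104), Cys1 by 0.90 ± 0.23 (adjusted p = 0.0280) and Dcdc2a by 1.01 ± 0.29 (adjusted p = 0.0393). In controls the change was -0.90 ± 0.27 for Bicc1 (adjusted p = 0.0643), -0.73 ± 0.33 for Pkd2 and -0.53 ± 0.26 for Cys1; 1 gene, Bicc1, had an unadjusted p under 0.05. Without the third day 0 mutant the control changes of Bicc1 and Pkd2 passed (adjusted p = 0.0191 and 0.0136), and Bicc1 passed without the first day 0 mutant as well (adjusted p = 0.0213). The rise of Dcdc2a was not past the threshold without any 1 of 8 arrays, namely the day 0 controls, the second day 2 control, the last 2 day 0 mutants and the 3 day 2 mutants (adjusted p up to 0.119). That of Cys1 was not without any 1 of the last 2 day 0 mutants or the 3 day 2 mutants (adjusted p up to 0.0905), and that of Bicc1 passed without any 1 array. The count in mutants fell to 1, Bicc1, without the second day 0 mutant or any 1 of the day 2 mutants, and rose to 5 without the first day 0 mutant. Day 0 and day 2 arrays came from different pups.

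Whether the genotype difference itself grew was tested as the day 2 difference minus the day 0 difference. None of the 8 genes passed in the limma fit (background 0.27%), though 3, Bicc1, Cys1 and Pkd2, had an unadjusted p under 0.05. The change of the difference was 2.14 ± 0.37 for Bicc1 (adjusted p = 0.0572), 1.43 ± 0.35 for Cys1 (adjusted p = 0.147) and 1.50 ± 0.45 for Pkd2 (adjusted p = 0.206). For Bicc1 1 of the 3 probes passed in the fit of all tested probes (1.99 ± 0.30, adjusted p = 0.0379; background 0.196%), and it did not with slide as a block (adjusted p = 0.106). The gene passed without the first day 0 mutant (2.44, adjusted p = 0.0119) or the third (1.92, adjusted p = 0.0337). For Dcdc2a and Ift88 the change was 0.79 ± 0.44 and 0.30 ± 0.25, with adjusted p of 0.449 and 0.622.

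The genes that followed each member most closely over the 11 arrays, by Pearson's r of log2 values, are given as a description, since all arrays share the 4 groups. For Dcdc2a they were Wfdc3 (r = 0.992), Clic6 (0.989) and Serf1 (0.987). For Cys1 they were Marveld2 (0.993), which encodes tricellulin of the tight junction, Inha (0.993), the inhibin alpha subunit, and again Clic6 (0.989), an intracellular chloride channel family member. For Bicc1 they were Mex3a (0.995), itself an RNA-binding protein, Ctxn1 (0.993) and Slc25a27 (0.988). For Pkd2 they were Papss1 (0.987), Trim35 (0.987) and Prkci (0.984), the atypical protein kinase C of cell polarity. For Ift88 they were Aplp1 (0.988), Slc39a6 (0.973) and Lamc1 (0.972), a laminin chain of basement membranes. For Invs they were Casp9 (0.952), Akt2 (0.941) and Zpbp2 (0.937). For Pkd1 (Arhgap17, 0.889; Terf2, 0.879; Clip4, 0.876) and Pkhd1 (Chadl, 0.872; Chdh, 0.862; Phax, 0.850) the closest genes were less close.

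The transport machinery around Ift88 moved in part. Of 16 other IFT-B genes tested, 4 were higher over both days, none lower, and 12 did not pass, with a median difference of 0.27. Beside this and the lists below, 8.66% of all genes tested were higher over both days, and 1068 of 15954 were lower. Ttc26 (1.79 ± 0.18, adjusted p = 0.00025), Ift81 (1.19 ± 0.19, adjusted p = 0.00302), Ift74 (0.67 ± 0.14, adjusted p = 0.0105) and Ift22 (0.59 ± 0.15, adjusted p = 0.0283) were higher; Ift81 and Ift74 form the tubulin-binding module of the complex. The call of Ift22 was lost without any 1 of 8 arrays, with the RMA values and with pup sex as a covariate (adjusted p up to 0.166). The count was 9 without the third day 0 mutant, 8 without all of slide 3 and 2 without the second day 0 control.

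Of 12 genes of the IFT-A complex and the ciliary motors, 7 were higher and none lower, with a median of 0.70. They included Ift43 (1.14 ± 0.12, adjusted p = 0.000347), Kif3a, the motor subunit of kinesin-2 (1.23 ± 0.14, adjusted p = 0.000466), Ttc21b, an IFT-A subunit (1.51 ± 0.26, adjusted p = 0.00487), and Dync2li1 of the dynein that runs back down the cilium (1.73 ± 0.32, adjusted p = 0.00688). Ttc21b was not above background in any day 2 control, and there the mutants were at least 5.15-fold higher. With pup sex as a covariate 3 of these genes were higher, and without the second day 0 mutant 1 was lower.

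The BBSome is a coat that carries membrane proteins in the cilium. Of 13 genes of the BBSome and of genes grouped with it, such as chaperonins, 4 were higher and none lower, with a median of 0.16. The higher ones were Ttc8 (0.84 ± 0.15), Bbs5 (0.63 ± 0.12), Bbs2 (0.51 ± 0.10) and Arl6 (0.74 ± 0.21), with adjusted p from 0.00532 to 0.0422. The call of Arl6 was lost without any 1 array other than the third day 0 mutant, and with median scaling, quantile normalization, the RMA values or no filter on dim probes (adjusted p up to 0.145). With pup sex as a covariate 2 of the 4 were higher.

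Among 24 nephronophthisis and transition zone genes, which form the gate at the base of the cilium, 9 were higher, 1 was lower and 14 did not pass; their median was 0.26. Sdccag8, a centrosomal protein of nephronophthisis, led with 2.51 ± 0.16 (adjusted p = 2.15e-05). Its level was -1.96 and -1.80 in day 0 controls, 0.75, 0.58 and -0.08 in day 0 mutants, -1.85, -2.16 and -2.13 in day 2 controls and 0.56, 0.79 and 0.68 in day 2 mutants, with no overlap. Tmem231 (1.39 ± 0.16), Cc2d2a (0.94 ± 0.13) and Tmem237 (0.88 ± 0.12), membrane or linker proteins of that gate, followed with adjusted p from 0.000574 to 0.00159. The lower gene, named after its value was seen, was Ahi1 (-0.70). The lower count was 2 without the third day 0 mutant or without slide 3, and 0 without the first day 0 control. It was also 0 with the mean of all tested probes, the most variable probe or pup sex as a covariate.

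None of the 9 genes listed for polycystic liver disease, most of which act on glycoproteins in the endoplasmic reticulum, passed the threshold in the limma fit. Of them, 2 had an unadjusted p under 0.05, and the median was 0.16. Without the third day 2 control 1 was higher, as it was without slide 3, with the mean of all tested probes and with the most variable probe.

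Relatives of the members did not follow them as a family. Of 6 tested, Dcx, the doublecortin of migrating neurons, read higher in mutants by 3.21 ± 0.44; it entered the test only through the mutant groups, where it was high, so this is a description. Pkhd1l1, the fibrocystin-like gene (-0.94 ± 0.23, adjusted p = 0.0242), and Pkd2l2 (-0.57 ± 0.15, adjusted p = 0.0342) were lower. The lower count was 0 without any 1 of the day 0 controls or of the first 2 day 2 controls, 1 without the third day 2 control or the first or second day 2 mutant, and 4 without the third day 0 mutant. With pup sex as a covariate it was 0.

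Partners of Invs and Bicc1 and genes of planar cell polarity had 7 of 14 higher and none lower, with a median of 0.60. Fjx1, a Golgi kinase of the Four-jointed type (4.18 ± 0.34, adjusted p = 7.46e-05), Celsr1, a polarity cadherin (1.64 ± 0.18, adjusted p = 0.000416), Dvl2, the Dishevelled protein that inversin binds (0.60 ± 0.09, adjusted p = 0.00302), and Vangl2, a core polarity protein (1.18 ± 0.19, adjusted p = 0.00343), were among them. Of the 7, Fzd3, named for this reason, entered the test only through a mutant group. The count was 4 without the first day 0 control, and 4 with pup sex as a covariate.

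Of 13 transcription factors of the cilium and the duct, 5 were higher and 1 lower, with a median of 0.35. Among all genes tested, 8.66% were higher and 1068 of 15954 lower. Sox9, a factor of duct cells (4.30 ± 0.19, adjusted p = 5.49e-06), Foxj1, the factor of motile cilia (2.17 ± 0.21, adjusted p = 0.0002), and Sox4 (2.02 ± 0.22, adjusted p = 0.000393) were higher. Glis2, a nephronophthisis gene (1.19), was higher too, and Rfx2 (-0.89) was the lower one; both were named after their values were seen. Foxj1 was not above background in any day 2 control, and the day 2 mutants were at least 8.12-fold higher. The lower count ranged from 0 to 4 when 1 array was left out: it was 4 without the third day 0 mutant, 2 without the first, and 0 without any 1 of the 5 controls or of the last 2 day 2 mutants.

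Of 9 genes of duct secretion and cyclic AMP, 2 were higher (8.66% of all genes) and 1 lower, with a median of 0.14. Ano1, a chloride channel (1.23 ± 0.25, adjusted p = 0.0098), and Adcy5, an adenylyl cyclase (0.70 ± 0.15, adjusted p = 0.0142), were higher, and Adcy6, another one (-0.33 ± 0.09, adjusted p = 0.0362), was lower. The call of Adcy5 was lost without the second day 0 control, with normexp background correction and with pup sex as a covariate (adjusted p up to 0.210). That of Adcy6 was lost without any 1 array other than the last 2 day 0 mutants, and without slide 3. It was lost too with median scaling, the RMA values, no filter on dim probes or its most variable probe. Slide as a block and pup sex as a covariate also lost it (adjusted p up to 0.171 over these settings).

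Of 9 genes of the motile cilium, a structure bile duct cells lack, 3 were higher and none lower, with a median of 0.06, close to the -0.05 of all genes. Tekt1, a tektin of the axoneme (3.12 ± 0.21), Rsph9, of the radial spoke (1.55 ± 0.25, adjusted p = 0.00373), and Dnah11, an outer arm dynein (1.48 ± 0.35, adjusted p = 0.0213), were higher. Tekt1 was above background in no day 2 control, and the day 2 mutants were at least 12.8-fold higher; it entered the test only through the mutant groups, where it was high, so its place among the 3 is a description. Dnah11 was not called without the first day 0 control, with normexp background correction or with pup sex as a covariate (adjusted p up to 0.0980).

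**Figure D4:**
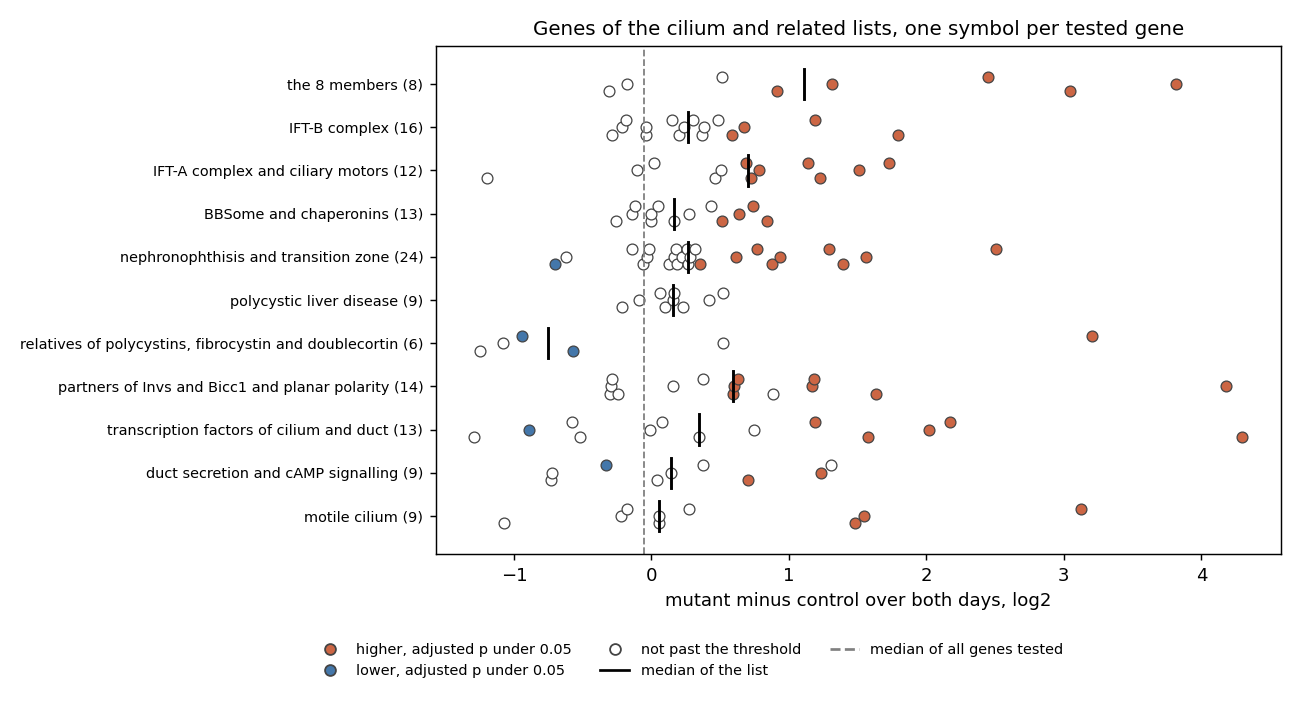
Mutant minus control over both days (x axis, log2) for each tested gene of the 8 members and of 10 lists of related genes, with the number tested in brackets; filled symbols passed the threshold, the bar is the list's median and the dashed line the median of all genes tested. The median of the 8 members is 1.11, that of the IFT-A and motor list 0.70, and that of the relatives -0.75.

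Most markers of bile duct cells moved in the direction of the members over both days, and fewer passed at day 0 alone. All 12 were tested. At day 0, 6 were higher and none lower, where 1.52% of all genes were higher. At day 2, 10 were higher and 1 lower, where 9.46% of all genes were higher. Over both days 10 were higher and 1, Cd24a (-0.65), was lower, with a median of 1.55. Among all 15954 genes tested, 1382 were higher and 1068 lower. Epcam (3.46 ± 0.26), Ddr1 (3.07 ± 0.14), Cldn7 (2.99 ± 0.21) and Spp1 (3.72 ± 0.36) were higher by amounts like those of Dcdc2a and Cys1, while Krt19 (1.53 ± 0.40) and Krt7 (0.77 ± 0.17) were higher by less. At day 0 neither keratin passed in the limma fit, with a difference of 0.39 for Krt19 (adjusted p = 0.797) and -0.27 for Krt7 (adjusted p = 0.656). The call of Krt19 over both days was lost without any 1 of 7 arrays, with slide as a block and with pup sex as a covariate (adjusted p up to 0.136). Those of Krt7, Krt19, Cdh1, Cd24a, Cyp2e1, Slc4a1 and Stab2, markers of several cell types, were each lost without either one of the day 0 controls. The summed log2 level of the duct markers was 6.53 to 7.14 in controls, 7.47 to 8.80 in day 0 mutants and 8.19 to 8.44 in day 2 mutants. It is the log2 of summed signals, so the brightest genes largely set it. Cd24a alone read 6.19 to 6.77 in controls, and Spp1 alone 6.29 to 8.32 in mutants. Hepatocyte markers had a median of -0.82 (4 of 8 lower), erythroid markers -1.04 (2 of 6 lower), macrophage markers -0.61 (2 of 5 lower) and endothelial markers -0.11 (1 of 6 lower), and no stellate, mesothelial, megakaryocyte or granulocyte marker passed. In whole liver, more cells of a type and more RNA per cell cannot be told apart, and the part of cell number in the differences of the members was not tested.

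Promoter windows from RefSeq (GRCm38.p6; 250 bases before to 50 after the start of the gene) were held for 7 of the 8 members. They were searched on both strands for TGGGAA, the core bound by RBPJ, the DNA-binding partner of the Notch intracellular domain; for ACAATG, a SOX core; and for GGCAAC, the core of the X-box of RFX factors. No match overlapped one of another motif. Of 32851 windows of this length, 25.6% held the RBPJ core, 12.6% the SOX core and 12.5% the X-box core. Among the members, Dcdc2a held 1 RBPJ core, Invs held 2, Ift88 held 1 X-box core, and Pkhd1, Pkd1, Pkd2 and Cys1 held none of these letters. The windows of Dcdc2a (chr13:25055754-25056053, plus strand) and Invs (chr4:48279510-48279809, plus strand) are shown, since they are the windows with an RBPJ core; capitals mark the matches.
Dcdc2a promoter: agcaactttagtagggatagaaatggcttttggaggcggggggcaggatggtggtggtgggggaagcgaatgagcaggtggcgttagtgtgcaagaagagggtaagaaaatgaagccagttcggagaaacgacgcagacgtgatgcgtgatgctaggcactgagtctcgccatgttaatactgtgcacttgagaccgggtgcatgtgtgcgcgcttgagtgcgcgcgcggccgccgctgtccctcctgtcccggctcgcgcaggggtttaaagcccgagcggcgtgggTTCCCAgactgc
Invs promoter: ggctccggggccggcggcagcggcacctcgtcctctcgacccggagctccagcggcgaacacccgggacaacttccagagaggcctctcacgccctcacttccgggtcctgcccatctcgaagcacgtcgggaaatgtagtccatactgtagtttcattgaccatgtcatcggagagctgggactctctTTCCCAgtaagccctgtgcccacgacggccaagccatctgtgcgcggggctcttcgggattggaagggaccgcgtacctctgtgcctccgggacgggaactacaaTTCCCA
The match in Dcdc2a starts 38 bases after the start of the gene, and those in Invs start 61 bases before it and 44 bases after it, all on the opposite strand. Dcdc2a was higher in mutants at both days, while Invs did not pass the threshold at either. A match of letters is a description of the window, and binding was not measured.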

How the data were processed

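Total RNA of 11 newborn livers was hybridised to 1-colour Agilent arrays. The deposited scanner files hold spot intensity (gProcessedSignal, Feature Extraction 9.5.3.1, per the file headers), already background-subtracted. The deposited table of the whole series holds log2 values made by the authors with RMA, per the submitters' processing notes; its other settings are not given in the sources used here, and it served as an alternative. Outlier-flagged spots were dropped, log2 intensity was set against each array's 75th percentile over non-control spots, and spots printed more than once were averaged per probe. Tested probes were those that all arrays of some group read well above background. Genes were named through the current symbol of the probe's accession, and read from the brightest tested probe. limma 3.58.1 (R 4.3.3) fitted all 4 groups together, and p-values were adjusted by Benjamini-Hochberg over 15954 genes, or over 27080 probes for single probes; the fit was tested on simulated data. Replicates are separate arrays; the labels name no separate litters, so p-values measure the spread between these samples. Arrays carry no counts: their number limits the precision. Replicate numbers equal slides. Same-numbered day 2 arrays deviated together (r = 0.281, 0.227 and 0.259), so slide pairs the day 2 arrays; slide 3 has no day 0 control.

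The named genes are the members, up to 4 genes with the smallest p-value over both days from each list, and the 3 genes closest to each member. Members and lists were chosen with earlier results of these data known. Alternatives were normexp background correction (offset 50), median and quantile scaling, the RMA values, 2 other filters on dim probes, other probes per gene, kept outlier spots, slide as a block, pup sex as a covariate, each array or slide 3 left out, and only the groups compared. For lists they were added after seeing the data. One gene that the rule names is not reported here.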

Additional observations from a re-analysis of the deposited data

Results flagged for a closer look

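The Bicc1 probe A_51_P356493 was singled out because its mutant difference was larger at day 2 than at day 0 by a test of that change itself: 1.99 ± 0.30 (limma, adjusted p = 0.0379 over all tested probes). The other Bicc1 probes gave 2.14 ± 0.37 and 2.26 ± 0.38, with adjusted p of 0.0620 and 0.0612, and all 3 day 2 mutants lay above all day 0 mutants while all day 2 controls lay below both day 0 controls. With slide as a block this probe's adjusted p was 0.106.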

How the results depend on the processing

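The number of members past the threshold ran from 4 to 5 over both days and from 5 to 6 at day 2 in the alternatives run. Pkd2 was not past it over both days where the mean of its probes (adjusted p = 0.0621) or its most variable probe (adjusted p = 0.288) stood for it. At day 0 the 3 members became 1, Dcdc2a, with only the groups compared, and 2 to 4 when 1 array was left out. Bicc1 was lost there with slide as a replicate block (adjusted p = 0.0587) and with pup sex as a covariate (adjusted p = 0.429). It was lost too with median scaling (adjusted p = 0.0567) and with no filter on dim probes (adjusted p = 0.0578). For the change of the difference the count was 1, Bicc1, with normexp, quantile normalization, the RMA values and the mean of all probes, and 0 to 1 when 1 array was left out. Over time in controls it was 1 with the RMA values, the mean of all probes and only the groups compared (Bicc1) and without slide 3 (Pkd2), and 0 to 2 when 1 array was left out. Over time in mutants it was 5 with median scaling, which moved the median of all genes by 0.18, 1 (Bicc1) without slide 3, and 1 to 5 when 1 array was left out. With the replicate block Pkhd1 passed over time in mutants (adjusted p = 0.0379); besides this and the loss of Bicc1 at day 0, the block changed no gene-level call of a member. Among related genes it changed some calls, those of Adcy6 and Krt19 among them. Day 0 arrays of the same number were paired only weakly (r = 0.0617 and 0.0904).

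Signs turned only in values that did not pass. Invs over time in mutants was -0.35 with normexp, -0.42 without slide 3 and -0.27 to 0.34 when 1 array was left out. Invs at day 0 was 0.057 with normexp, 0.25 without slide 3 and -0.37 to 0.25 when 1 array was left out. Pkd1 over time in mutants was 0.067 with median scaling. The change of the Pkd1 difference was -0.075 without slide 3 and -0.035 to 0.33 when 1 array was left out, and its day 2 difference -0.26 to 0.092. Pkd2 over time in controls was 0.30 with the mean of its probes and 1.33 with the most variable one. Pkhd1 at day 0 was 0.60, 1.94 and 0.039 with the mean of its probes, the most variable probe and the block, and -0.80 to 0.61 when 1 array was left out. Its probe A_52_P576007 read 0.091 both with the block and without the third day 0 mutant. Pkhd1 over time in controls was -0.29 to 1.12 when 1 array was left out, and Dcdc2a there -0.25 with pup sex as a covariate. The cause of these changes was not tested. Groups of 2 or 3 arrays, and signals near background for Invs and the 5′-side Pkhd1 probe, limit the precision.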
